A study of Mus musculus with 4 samples.

Results

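Cxcl12, Cxcl13, Cxcr4 and Ackr3 make up a chemokine axis of 2 ligands and 2 receptors, and they were 4 of the 27998 genes counted in single cells of the mouse mesoderm. The members were picked by name with earlier results of these libraries known, and a higher level of Cxcl12 in the late than in the early libraries was one of those results. Levels by stage are therefore given as a description with no test. The tests compare cell compartments within a library, gated on markers that hold none of the 4 genes.

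Chemokines are small secreted proteins that steer migrating cells through receptors of the G protein-coupled family. CXCL12 signals through CXCR4, and it is known for guiding germ cells, muscle precursors, endothelium and blood progenitors in the embryo. ACKR3, an atypical receptor that recruits arrestin in place of G proteins, takes up and degrades CXCL12 and so shapes its gradient. CXCL13 acts through a different receptor, CXCR5, and is best known as a B cell attractant of lymphoid tissue.

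Each of the 4 libraries was 1 pool of Swiss Webster embryos of genotype Mesp1Cre;Rosa26-GFPflox/+, in which Cre from the Mesp1 locus switches on GFP in the early mesoderm and in its descendants. Live GFP-positive cells were sorted, so cells with no Mesp1 history were largely kept out. The early embryos (E8.0, E8.25) gave the upper part of the body and the late ones (E9.5, E10.5) the heart and pharyngeal apparatus, so stage and dissected region cannot be told apart. After filtering, the libraries held 7118, 2884, 3921 and 7525 cells in order of stage, with a median of 21321, 35216, 17254 and 15205 unique molecular identifiers (UMIs) per cell. Pairs of libraries shared between 16 and 88 cell barcodes, at most 1.39% of the smaller one. The spread between embryos of 1 stage was not measured, and intervals printed with a level or a share cover counting error only.

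A cell entered a gate where it had a UMI of at least 3 of the 6 markers and of more markers of that gate than of any other, which placed between 73.4% and 83.8% of the cells of a library. In order of stage, the mesenchyme gate (Prrx1, Prrx2, Twist1, Pdgfra, Foxc1, Foxc2) held 3516, 1626, 987 and 2586 cells and the endothelial gate 401, 149, 204 and 367. The muscle progenitor gate (markers including Tcf21, Lhx2, Msc, Myf5 and Tbx1) held 43, 58, 578 and 586 cells and the erythroid blood gate 173, 328, 7 and 1037. The 7 blood cells of E9.5 were left out of every comparison. The cardiomyocyte gate (299, 35, 435 and 204 cells) and the splanchnic gate of Foxf1, Osr1, Wnt2, Tbx5, Hoxb1 and Isl1 (721, 157, 758 and 850 cells) are also described. Kdr and Flt1, Hbb-bh1 and Actc1, which no gate used, were at their highest in the endothelial, blood and cardiomyocyte gates respectively in every library, among the gates checked. The gates did not hold the same cells at each stage. Mesenchyme cells carried the paraxial gene Tcf15 at 146 and 141 counts per 1000000 UMIs (CPM) in the early libraries but at 4.1 and 9.0 in the late ones. At E8.0 the muscle progenitor gate had Myf5 in 2.33% of its cells and no UMI of Msc, so it rested on the other markers. Checks of the other gates were mixed. Late, Myod1 was highest in muscle progenitors (1.67 and 15.4 CPM) and Foxf2 in the splanchnic gate (21.2 and 63.5). Ebf3 was higher in mesenchyme than in muscle progenitors late (19.6 and 36.0 CPM against 15.0 and 19.1). Gata4 was never highest in the splanchnic gate (33.8 CPM against 80.2 in cardiomyocytes at E8.0). Col3a1 was highest in mesenchyme late but not early. It was at 5.27 CPM at E8.0 and 31.0 at E8.25, against 26.7 and 83.4 in the mesothelial gate and 5.60 and 33.8 in the splanchnic gate.

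The promoters of the ligands are shown because both genes were higher at the late stages, and their sequences differ in type. The 120 bases before the RefSeq start site (GRCm38.p6, plus strand for both) are given 5′ to 3′, with capitals at each match to the GC box GGGCGG or the TATA box TATAAA on either strand. The Cxcl12 window lies at chr6:117168415-117168534, is 71.7% G or C and holds 4 GC box matches and 0 TATA box matches. The Cxcl13 window lies at chr5:95956819-95956938, is 48.3% G or C and holds 1 TATA box match and 0 GC box matches. Among 32851 RefSeq promoter windows of this length, 26.5% hold a GC box match and 6.34% a TATA box match.
Cxcl12: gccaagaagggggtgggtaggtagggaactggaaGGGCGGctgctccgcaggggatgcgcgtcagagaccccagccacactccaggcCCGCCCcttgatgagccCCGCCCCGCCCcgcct
Cxcl13: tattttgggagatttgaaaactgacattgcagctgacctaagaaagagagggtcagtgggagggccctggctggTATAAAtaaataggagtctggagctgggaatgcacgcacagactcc

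Cxcl12 (ENSMUSG00000061353, chromosome 6) had more of its UMIs in the mesenchyme gate than in any other gate in each library. Its levels in the mesenchyme gate, in order of stage, were 6.69, 31.3, 86.2 and 118 CPM, each beyond the counting interval of the one before. The E10.5 level was 17.6 times the E8.0 level in this gate (log2 4.14, 95% interval 4.01 to 4.27) and 12.9 over all cells (log2 3.69, 3.58 to 3.79). In sums over all cells, fewer cells of a type and less RNA per cell cannot be told apart. A UMI of Cxcl12 was seen in 11%, 46.9%, 44.6% and 54.2% of mesenchyme cells. After every cell was thinned to 5000 UMIs the shares were 3.56%, 14.0%, 25.8% and 33.6%, higher in each later library, whereas the unthinned shares follow the greater depth of E8.25. Mesenchyme supplied 62.8%, 77.8%, 43.2% and 51.3% of all Cxcl12 UMIs, with 49.4%, 56.4%, 25.2% and 34.4% of the cells. Its level was 1.22, 1.44, 1.66 and 1.67 times the level over all cells.

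Other compartments carried Cxcl12 too, and the order among them differed with stage. The splanchnic gate stood at 5.42, 10.2, 52.1 and 74.7 CPM, and the muscle progenitor gate at 4.90, 13.4, 36.3 and 56.7, the first of these on 4 UMIs. Cardiomyocytes had little Cxcl12 early, with 0.716 and 2.76 CPM, then 22.5 and at E10.5 as much as mesenchyme, 116 CPM with an interval of 104.7 to 128.1. At E8.0 the intervals of mesenchyme, splanchnic and muscle progenitor cells overlapped, and the 16 mesothelial cells were at 17.8 CPM on 6 UMIs (interval 6.5 to 38.7). At E8.25 the mesothelial gate (43.9 CPM, 27 cells) and the paraxial gate (37.7 CPM, 38 cells) stood above mesenchyme, with overlapping intervals between neighbours. At E9.5 mesenchyme, splanchnic and muscle progenitor cells followed in that order, each apart from the next. At E10.5 mesenchyme and cardiomyocytes were level, and splanchnic, muscle progenitor, paraxial (35.6 CPM) and mesothelial cells (16.4 CPM) came below, each apart from the next. Cells outside the gates were also high at E10.5. Those with too few markers were at 115 CPM (interval 108.5 to 121.3) and those tied between gates at 104, with 14.0% and 10.6% of the Cxcl12 UMIs.

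Within the mesenchyme gate, split by Prrx1 after the levels were seen, Cxcl12 was higher in the cells with no Prrx1 UMI from E8.25 on. These had 36.8, 115 and 156 CPM, against 29.4, 82.4 and 111 in cells with one, while at E8.0 they had 6.49 against 6.75, with overlapping intervals. Prrx1 is a homeobox gene of limb and craniofacial mesenchyme. Ackr3 split the same way at E9.5, with 23.6 CPM without Prrx1 and 7.63 with it, while the intervals overlapped at E10.5 (18.0 and 16.4).

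Endothelial and blood cells held little Cxcl12. The endothelial levels were 1.18, 2.55, 2.51 and 5.91 CPM, and the blood levels 0, 3.26 and 4.59 CPM in the 3 libraries with enough blood cells. For the 0 in blood of E8.0 the floor of 3 UMIs is 0.519 CPM. At E10.5 the endothelial, macrophage (5.83 CPM) and blood gates lay within the counting intervals of their neighbours. Free RNA was present, since the globin Hbb-bh1 was at 77533 CPM in blood of E10.5 and at 676 to 720 CPM in each of 6 other gates. At E8.25 it was at 41820 CPM in blood and at 1156 to 1270 in the other gates, a larger part of the blood level. The blood levels of Cxcl12, Cxcl13 and Cxcr4 at E10.5 were 0.0653, 0.0690 and 0.0657 of their levels over all cells, and the part of free RNA in them was not tested.

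**Figure D1:**
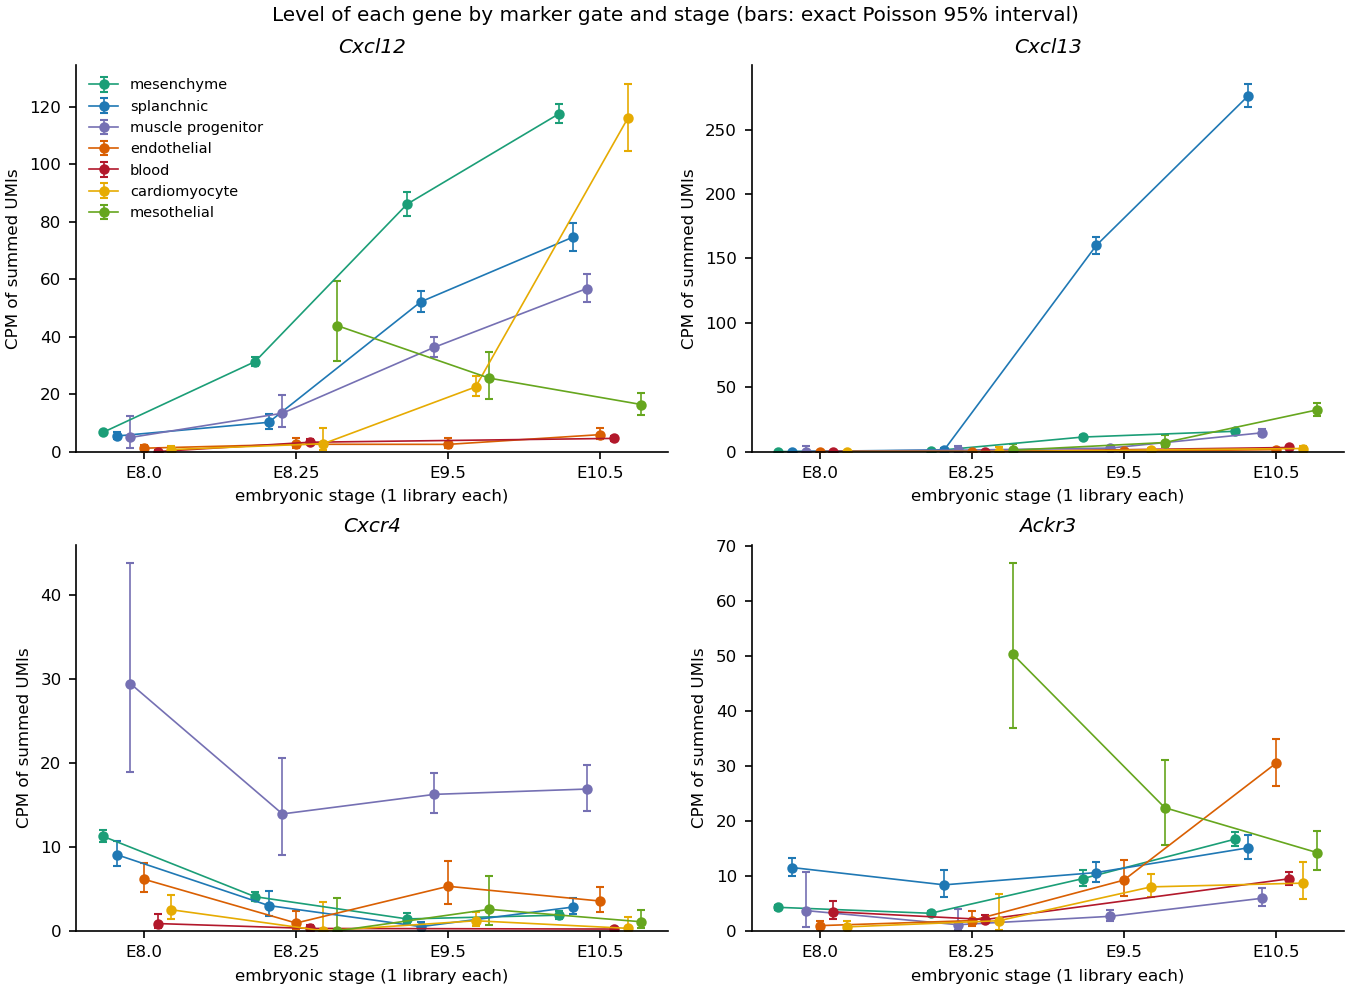
Level of each gene in CPM of summed UMIs (vertical axis, linear) by stage (horizontal axis, 1 library each), with 1 coloured line per marker gate of at least 20 cells and bars for the exact Poisson 95% interval. Cxcl12 reaches 118 CPM in mesenchyme and 116 in cardiomyocytes, Cxcl13 stands out in the splanchnic gate at 276 CPM, Cxcr4 is highest in muscle progenitors in all 4 libraries, and Ackr3 is highest in the mesothelial gate at E8.25 (50.3 CPM) and in endothelium at E10.5 (30.4 CPM).

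Cxcl13 (ENSMUSG00000023078, chromosome 5) was close to absent early and present late. Over all cells it gave 4, 59, 2782 and 5894 UMIs in order of stage, or 0.026, 0.556, 39.4 and 46.1 CPM. At the late stages the splanchnic gate held 80.4% and 59.7% of these UMIs, with 19.3% and 11.3% of the cells. Levels in that gate were 0, 1.34, 160 and 276 CPM, so that the late ones were at least 877-fold and 1514-fold higher than the 3-UMI floor of the gate at E8.0. A UMI was seen in 49.1% and 51.2% of its late cells, and in 32.8% and 37.1% after thinning.

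Every other gate of at least 20 cells lay below the splanchnic one at both late stages, beyond counting error. Mesenchyme was at 11.3 and 15.8 CPM, the mesothelial gate at 7.03 and 32.3, muscle progenitors at 2.72 and 14.6, cardiomyocytes at 1.33 and 2.39 and endothelium at 0.279 and 1.48. In the mesothelial gate of E10.5 a single cell held 81 of 150 UMIs, and in the muscle progenitor gate a single cell held 41 of 133. At E10.5 the intervals of mesenchyme and muscle progenitors overlapped, but the latter gate was uneven. Its 389 cells with a Lhx2 UMI were at 1.55 CPM and its 197 cells without at 45.7, a split chosen after the levels were seen.

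Within the splanchnic gate the cells were not uniform in Cxcl13, and the splits that follow were chosen after its level was seen. The gate joins Isl1, a second heart field factor, with Tbx5, Hoxb1, Foxf1, Osr1 and Wnt2, which mark its posterior part and the splanchnic mesoderm around it. Cells with no Isl1 UMI had 231 CPM at E9.5 and 410 at E10.5, against 121 and 175 in cells with one. Cells with a Tbx5 UMI had 180 and 313 CPM, against 121 and 113 without, and cells with a Hoxb1 UMI had 189 and 420, against 115 and 237 without. Cxcl13 was thus higher in cells with Tbx5 or Hoxb1 and lower in cells with Isl1 in both late libraries. Each of these genes is a gate marker, so a cell without one had to carry enough of the others. Opposite splits by Isl1 and by Tbx5 or Hoxb1 can in part follow from that rule, which was not tested. Cells with Foxf1 had 170 and 287 CPM, against 6.10 and 164 without. Cells with Wnt2 had 173 and 329, against 131 and 211 without. With Osr1 the levels were 176 and 271, against 62.4 and 412 without, so that split changed direction. Cxcl12 did not keep to the Isl1 and Tbx5 splits of Cxcl13. It was at 42.7 CPM with Isl1 and 69.1 without at E9.5, but at 86.5 with and 59.1 without at E10.5, where cells with Tbx5 had 60.6 and those without had 137.

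**Figure D2:**
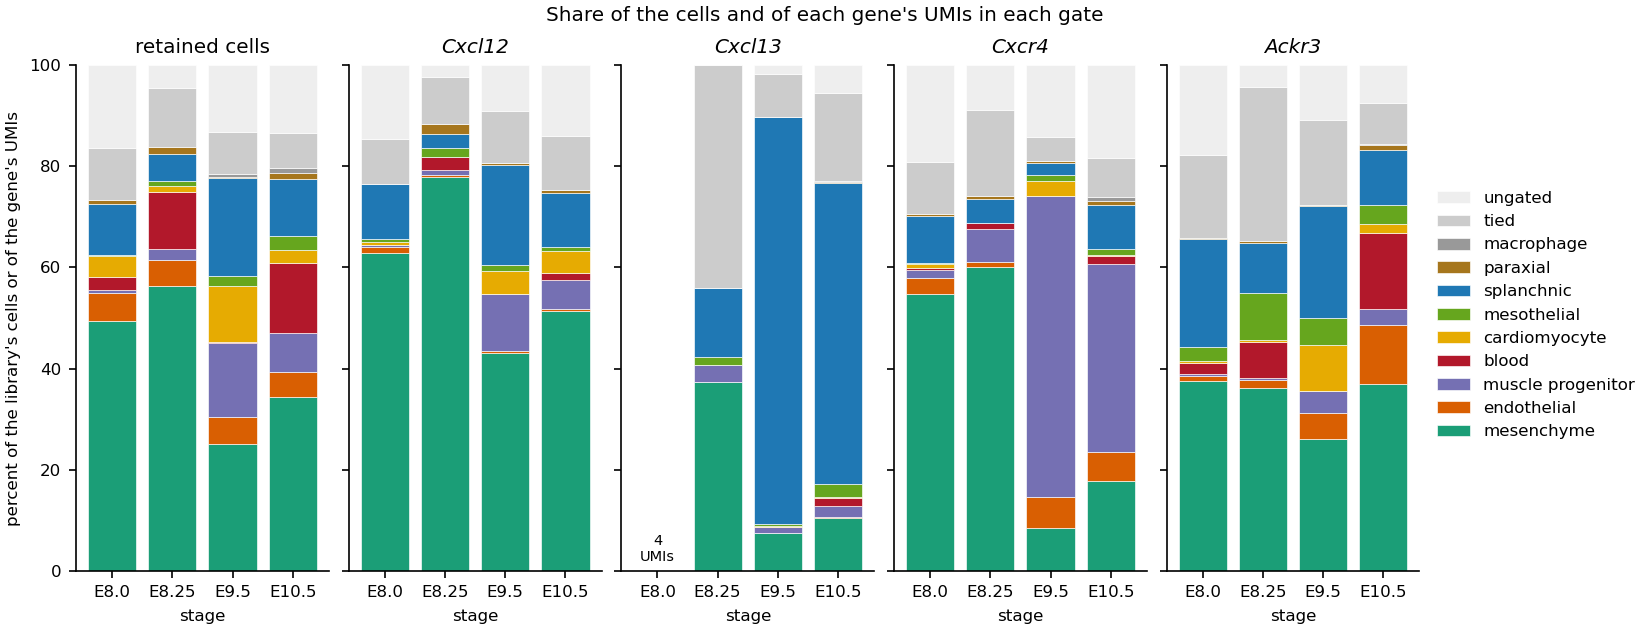
Stacked bars of the percent of retained cells (left panel) and of each gene's UMIs (other panels) in each marker gate, by stage. Mesenchyme gives 43.2% to 77.8% of Cxcl12 UMIs, the splanchnic gate 80.4% and 59.7% of Cxcl13 UMIs at E9.5 and E10.5, and muscle progenitors 59.7% and 37.3% of Cxcr4 UMIs at the same stages. The 4 Cxcl13 UMIs of E8.0 are not drawn.

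Cxcr4 (ENSMUSG00000045382, chromosome 1), the signalling receptor of CXCL12, was highest in muscle progenitors in each library. Its levels there were 29.4, 13.9, 16.2 and 16.9 CPM in order of stage, each apart from the next gate beyond counting error, though at E8.0 on only 43 cells and 24 UMIs. Over the same libraries mesenchyme stood at 11.2, 4.06, 1.42 and 1.86 CPM. The E10.5 level was 6.05-fold below the E8.0 level in mesenchyme (log2 ratio -2.60, 95% interval -2.96 to -2.25) and 1.74-fold below it in muscle progenitors (-0.80, -1.43 to -0.12). The shares of the gates in all Cxcr4 UMIs differed between E8.0 and E10.5. Mesenchyme held 54.8% at E8.0 and 17.7% at E10.5, with 49.4% and 34.4% of the cells. Muscle progenitors held 1.5% and 37.3%, as their own share of the cells went from 0.604% to 7.79%. Cells with too few markers for any gate held 19.1% and 18.4%, with 16.3% and 13.4% of the cells. Their levels were 16.5, 10.3, 6.50 and 6.92 CPM in order of stage, above every gate but muscle progenitors.

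A UMI of Cxcr4 was seen in 39.5%, 27.6%, 20.2% and 18.4% of muscle progenitor cells, or 16.3%, 3.45%, 7.45% and 7.0% after thinning. Blood, at 0.865, 0.286 and 0.212 CPM, had one in 2.89%, 1.52% and 0.579% of cells, although its median depths of 34124, 51863 and 27897 UMIs were above the 20516, 30852 and 14848 of muscle progenitors in the same libraries. The unthinned share in muscle progenitors was thus far above that in blood. After thinning, the intervals of these gates stayed apart at E8.0 and E10.5. They overlapped at E8.25, with 2 of 58 muscle progenitor cells and 0 of 328 blood cells. Split after the levels were seen, muscle progenitors with a UMI of Myf5, a myogenic determination factor, had 21.4 CPM at E9.5 and 19.4 at E10.5. Those without Myf5 had 12.6 and 14.2 CPM. The counting intervals of the pair were apart at E9.5 and overlapped at E10.5. In the other gates the late order was loose, with the intervals of neighbours overlapping from endothelium down.

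Ackr3 (ENSMUSG00000044337, chromosome 1), the scavenging receptor, was highest in different gates at different stages. Over all cells its levels were 5.82, 4.77, 9.42 and 13.8 CPM. The splanchnic gate, at 11.5, 8.35, 10.6 and 15.1 CPM, was the highest at E8.0 among gates of at least 20 cells. The mesothelial gate (Upk3b, Upk1b, Wt1, Tbx18, Krt19, Bnc1) led at E8.25 and E9.5 with 50.3 and 22.4 CPM on 27 and 74 cells, and had 14.2 CPM at E10.5. At E8.0 this gate held only 16 cells, which were above the splanchnic gate at 71.2 CPM on 24 UMIs (interval 45.6 to 105.9). Lhx9, a mesothelial gene that the gate did not use, was at 0 CPM in it at E8.25 and at 56.9 and 39.0 later. Krt18, an epithelial keratin that the gate did not use either, was highest in it among the gates checked in every library, at 1799 CPM at E8.25 against at most 540 elsewhere. Mesenchyme was at 4.27 and 3.19 CPM early and at 9.48 and 16.6 late, and muscle progenitors were at 3.68, 1.11, 2.63 and 5.92. At E9.5 the splanchnic, mesenchyme, endothelial and cardiomyocyte gates followed the mesothelial one with overlapping intervals, and muscle progenitors lay apart below them.

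In endothelium Ackr3 was low early and high late. The endothelial levels were 0.945, 1.86, 9.20 and 30.4 CPM in order of stage, the last of them above every other gate beyond counting error. From E8.0 to E10.5 the ratio was 32.2 in endothelium (log2 5.01, 95% interval 4.0 to 6.24) and 3.90 in mesenchyme (1.96, 1.77 to 2.16). The high late level lay in endocardial cells, the lining of the heart, defined by a UMI of Nfatc1 or Npr3. These had 12.3 and 42.5 CPM at the late stages. The other endothelial cells had 0 CPM at E9.5, where 0 of 56 cells had a UMI (3 counts of 56 would be 5.36%, a limit on cells with a UMI and not on cells that express the gene), and 4.21 CPM at E10.5. Early, both subsets were below 3 CPM. Arterial genes separated the levels less, with 35.5 CPM at E10.5 in cells with at least 2 of 6 arterial markers and 21.2 in the rest. Cxcr4 in the same arterial cells was 8.06 and 4.13 CPM at the late stages, against 2.71 and 2.49, with overlapping intervals.

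At E10.5 blood cells carried Ackr3 at a higher level relative to all cells than the other 3 genes. The blood levels were 3.46, 2.06 and 9.47 CPM at E8.0, E8.25 and E10.5, and 20.9% of the E10.5 cells had a UMI (4.92% after thinning). Relative to all cells of the library the E10.5 level was 0.686, against 0.0653 to 0.0690 for the other members in the same cells. At E8.0 it was 0.594 for Ackr3, 0 for Cxcl12 and 0.0821 for Cxcr4. At E8.25 Ackr3 was at 2.06 CPM in blood and 4.77 over all cells, and Cxcl12 at 3.26 in blood and 21.8 over all cells. In absolute terms Cxcl12 was the higher in blood of E8.25, with a UMI in 16.8% of cells against 9.76% for Ackr3. In blood of E10.5 no cell held more than 4 Ackr3 UMIs.

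**Figure D3:**
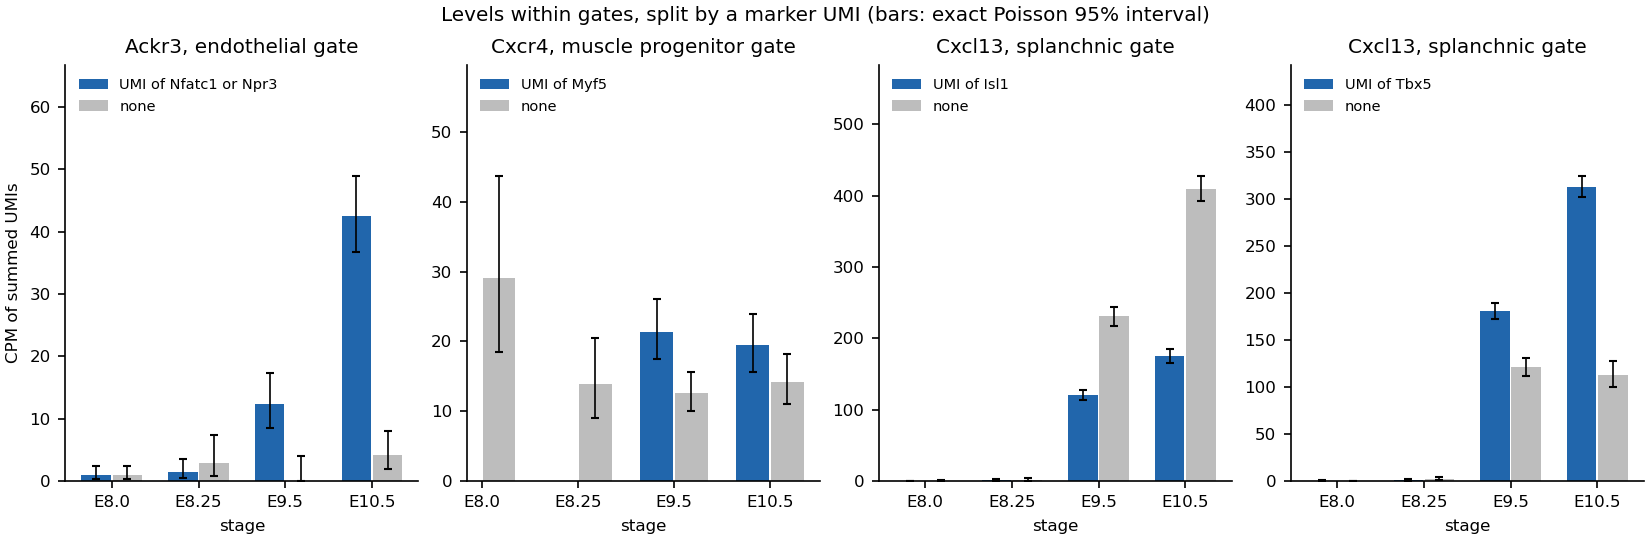
Level in CPM of summed UMIs (vertical axis, from 0) by stage in cells of a gate with a UMI of the named marker (blue) and without one (grey), with exact Poisson 95% intervals. Bars are drawn for subsets of at least 20 cells. Ackr3 reaches 42.5 CPM in endothelial cells with Nfatc1 or Npr3 at E10.5 and 4.21 without, and Cxcl13 at E10.5 is 175 CPM with Isl1 and 410 without.

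To ask in which compartments ligands and receptors differed, UMIs were summed per library and gate, and each gate was set against mesenchyme of the same library in edgeR, with its quasi-likelihood test, the library as a block and p-values adjusted after Benjamini and Hochberg over all genes. The 4 contrasts used 4 libraries each, except blood with 3. Muscle progenitors had more Cxcr4 and less of its ligand than mesenchyme: Cxcr4 was higher in 4 of 4 libraries, and Cxcl12 and Ackr3 were lower in 4 of 4. Muscle progenitor Ackr3 rested on 3 UMIs at E8.0 and 2 at E8.25, and Cxcl12 at E8.0 on 4. The counting intervals of those ratios include no difference, so they give no direction on their own. Cxcr4 was 5.69-fold higher (log2 2.51 ± 0.37 SE, n = 4, edgeR adjusted p = 0.0151). Cxcl12 was 2.16-fold lower (log2 -1.11 ± 0.10 SE, n = 4, edgeR adjusted p = 0.00322), and Ackr3 was 2.85-fold lower (-1.51 ± 0.24 SE, n = 4, edgeR adjusted p = 0.0181). In this contrast 1 of the 4 members was called higher and 2 lower, where 1.33% and 1.63% of the 12301 genes tested were. Cxcl13 was not called (log2 -0.82 ± 0.45 SE, edgeR adjusted p = 0.461). Without the E10.5 library the edgeR adjusted p was 0.0815 for Cxcr4 and 0.216 for Ackr3, and without E9.5 it was 0.158 for Ackr3. With no library block none of the 3 genes was called (edgeR adjusted p = 0.618 for Cxcr4, 1 for the others), nor was Ackr3 with a gate of at least 2 markers (log2 -0.98, edgeR adjusted p = 0.351).

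Endothelium differed from mesenchyme in the ligand, and a difference in the receptors was not detected. Cxcl12 was 15.6-fold lower in endothelium (log2 -3.97 ± 0.33 SE, n = 4, edgeR adjusted p = 0.000283), lower in 4 of 4 libraries. Cxcr4 was at log2 0.10 ± 0.57 (95% interval -1.02 to 1.22, edgeR adjusted p = 0.907). Ackr3 was at log2 -0.11 ± 0.44 (95% interval -0.96 to 0.74, edgeR adjusted p = 0.862). Intervals of this kind are narrower than the edgeR test allows. In blood the one for Cxcl13 leaves out 0 (log2 -2.32 to -0.11) at an unadjusted edgeR p of 0.0733. A 2-fold difference in Cxcr4 lies within its interval, and no limit on a difference in Ackr3 is read from its own. In endothelium Cxcl13 was too low to be tested. With 0 members higher and 1 lower, the background was 22.9% of 12192 genes called higher and 19.9% lower, so a call in itself was common here. The receptor means join libraries that differ in direction. Endothelial Cxcr4 was 6.14 and 0.928 CPM early, below mesenchyme, and 5.30 and 3.54 CPM late, above it. Endothelial Ackr3 was below mesenchyme in 3 libraries and above it at E10.5 (30.4 against 16.6 CPM).

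Blood was low in both Cxcl12 and its signalling receptor. Cxcl12 was 9.15-fold lower than in mesenchyme (log2 -3.19 ± 0.37 SE, n = 3, edgeR adjusted p = 0.00156) and Cxcr4 6.92-fold lower (-2.79 ± 0.44 SE, n = 3, edgeR adjusted p = 0.00397), both lower in 3 of 3 libraries. Blood Cxcr4 rested on 5, 5 and 6 UMIs in order of stage. With 2 members lower and 0 higher, the background was 30.8% of 13147 genes lower and 19.9% higher. The median over all genes was log2 -0.17 in this contrast, and -0.07 with DESeq2's size factors, so small differences move with the scaling. Ackr3 was below mesenchyme in CPM in 3 of 3 libraries but at log2 0.24 ± 0.24 in the fit, and was not called (edgeR adjusted p = 0.436). Cxcl13 was not called (log2 -1.22 ± 0.56 SE, edgeR adjusted p = 0.117). Without the library block Cxcl12 lost its call (log2 -3.09, edgeR adjusted p = 0.0996).

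Cardiomyocytes were low in Cxcl13 and Cxcr4. Cxcl13 was 7.05-fold lower than in mesenchyme (log2 -2.82 ± 0.30 SE, n = 4, edgeR adjusted p = 0.000734) and Cxcr4 3.17-fold lower (-1.67 ± 0.51 SE, n = 4, edgeR adjusted p = 0.0397). In CPM both were lower in 4 of 4 libraries, though Cxcl13 had no UMI in early cardiomyocytes and next to none in early mesenchyme. Cardiomyocyte Cxcr4 rested on 14, 0, 9 and 1 UMIs in order of stage. Its E9.5 ratio (log2 -0.24, counting interval -1.52 to 0.90) gives no direction on its own. With 2 members lower and 0 higher, 18.4% of 12359 genes were called lower and 18.2% higher. The Cxcr4 call was lost without E8.0, E8.25 or E10.5 (edgeR adjusted p = 0.186, 0.0733 and 0.0731) and with at least 2 markers (0.0706). Without the block neither Cxcr4 nor Cxcl13 was called (edgeR adjusted p = 0.171 and 0.320). Cxcl12 was not called (log2 -1.41 ± 0.48 SE, edgeR adjusted p = 0.0569), but without E10.5, where cardiomyocytes were level with mesenchyme, it was (log2 -2.29, edgeR adjusted p = 0.00166). Ackr3 was not called either (log2 -0.86 ± 0.35 SE, edgeR adjusted p = 0.0937).

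**Figure D4:**
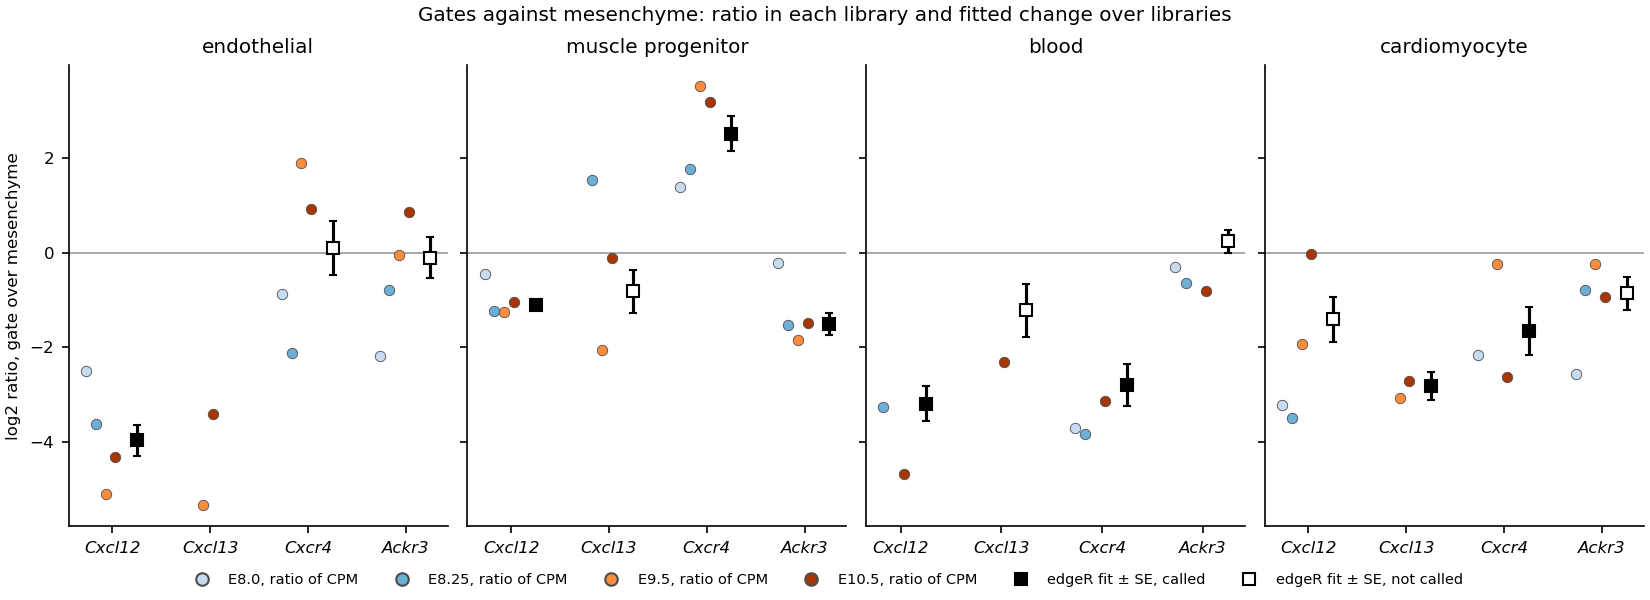
Log2 ratio of each gate to mesenchyme (vertical axis) for the 4 genes in 4 contrasts. Circles are ratios of CPM in 1 library, left out where a count was 0, and squares are edgeR estimates ± SE over the libraries, filled where the adjusted p was below 0.05. In muscle progenitors Cxcr4 lies above 0 and Cxcl12 below 0 in all 4 libraries, and in endothelium the Cxcr4 circles lie on both sides of 0.

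Read by stage, the ligands and Ackr3 exceeded their E8.0 levels at E10.5 over all cells, and Cxcr4 stood below its own. A gene was counted as higher late where both late libraries were at least 2-fold over both early ones, which is a rule of size and not a test. Over all cells Cxcl12 and Cxcl13 met it and the receptors did not, where 3.16% of 8072 genes were higher late and 1.08% lower. Within mesenchyme Cxcl12, Cxcl13 and Ackr3 were higher late and Cxcr4 lower, where 3.49% and 1.35% of 8098 genes were. Since the members were chosen with such a difference known, these counts only describe them.

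In single cells, joint counts of 2 members were low, and they are set beside the product of the separate shares. At 5000 UMIs per cell, 31 of 7525 cells at E10.5 held both Cxcl12 and Cxcr4, where the product of the shares gives 29.9. In mesenchyme of E10.5 it was 10 of 2586 cells against 7.05, and in muscle progenitors 4 of 586 against 8.96. Cxcl12 and Ackr3 met in 89 mesenchyme cells of E10.5, against 63.4 from their shares. The 2 ligands were counted together in 87 cells of E9.5 and 203 of E10.5, against 61.6 and 171.7 from their shares. Of those at E10.5, 80 were splanchnic, against 80.05 within that gate, and 59 were mesenchyme, against 44.3. The 2 receptors were counted together in 7 cells of E10.5, against 7.83. At E8.0, 4 of 7118 cells held both Cxcl12 and Cxcr4, where their shares give 11.6. Nothing further is read from differences in counts this sparse.

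Genes were ranked by likeness to each member across the 30 sums of a gate and a stage with at least 20 cells. They were picked on these same sums, so the gates in which they peak are no separate result. The measure was Pearson's r on log2(CPM + 10) among 8361 genes, given as a description since sums of 1 library share their depth. Nearest to Cxcl12 were Col9a1 (r = 0.889), Fam69b (0.877), Mfap4 (0.858), Podxl2 (0.847) and Col11a1 (0.843), of which Col9a1 and Col11a1 encode collagens and Mfap4 a microfibril protein. Podxl2 was highest in the splanchnic gate and the others in mesenchyme. Near to Cxcl13 were Fam19a1 (0.928), Hoxa4 (0.903), Nkx6-1 (0.890) and Rspo2 (0.861), each highest in the splanchnic gate. Nearest to Cxcr4 were Nrg1 (0.754), Frzb (0.750), Kctd12b (0.746), Dusp14 (0.737) and Pcolce2 (0.734), all highest in muscle progenitors. Nearest to Ackr3 were Sdpr (0.802), Col5a2 (0.769), Dkk2 (0.727), Fam114a1 (0.723) and Col3a1 (0.720), which peaked in 4 different gates. Among the members r was 0.52 for Cxcl12 with Cxcl13, 0.42 for Cxcl12 with Ackr3 and -0.12 for Cxcl12 with Cxcr4.

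Other genes of the pathway varied widely in their counts. Cxcr5, the receptor of CXCL13, had 1, 0, 0 and 1 UMIs in the 4 libraries, and Ackr4, an atypical receptor, had 6, 9, 4 and 1. Of 12 other CXC ligands in the files, Pf4, a platelet chemokine, was the most counted in the late libraries, at 139 and 117 CPM, after 1.31 and 1.24 early, and Ppbp, another platelet chemokine, was at 8.47 and 10.3 CPM late. In endothelium 10 of 19 tested pathway genes were called higher and 3 lower, against the same background as above. They included the ligands Pf4 (log2 5.42 ± 0.18 SE) and Cxcl16 (4.11 ± 0.38), the chemokine sink Ackr1 (4.34 ± 0.32) and Dpp4 (3.80 ± 0.52), the protease that clips CXCL12. These contrasts are with mesenchyme only. Endothelial Pf4 was at 15.2, 12.1, 144 and 274 CPM in order of stage, so at E9.5 it was near the 139 over all cells. Among the 12 signal transduction genes tested 6 were higher, led by Gnai2 (log2 1.36 ± 0.11), Arrb1 (1.25 ± 0.18) and Arrb2 (0.98 ± 0.18), a G protein subunit and the arrestins, and Adrbk2, a receptor kinase, was lower (-0.99 ± 0.29). Their median was log2 0.53, against -0.01 over all genes. Sdc4, a heparan sulfate proteoglycan, and Mif, a cytokine that also binds CXCR4, were lower (log2 -1.35 ± 0.22 and -0.23 ± 0.06).

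In blood 4 of 22 tested pathway genes were higher and 8 lower, near the shares over all genes of 19.9% and 30.8%. Higher were Pf4 (log2 4.58 ± 0.37 SE), Rac2 (5.20 ± 0.66), the haematopoietic Rac GTPase, Arrb1 (2.50 ± 0.54) and Jak2 (1.96 ± 0.24), a kinase downstream of cytokine receptors. Among the lower were Adrbk2 (-3.31 ± 0.62), the ligand Cxcl14 (-3.11 ± 0.77), Elmo1 (-3.07 ± 0.35), part of a Rac activator, Sdc4 (-2.92 ± 0.31) and Gnai1 (-1.82 ± 0.34). Adrbk2 was at 0 CPM in blood of E8.0 and Cxcl14 in that of E8.25, so their estimates depend on the count added before the log. In muscle progenitors Elmo1 alone of 16 tested genes was called, higher at log2 0.85 ± 0.14, where 1.33% of all genes were higher. In cardiomyocytes Adrbk2 was higher (2.07 ± 0.23) and Elmo1 (-1.37 ± 0.26), the alarmin Hmgb1 (-0.74 ± 0.13) and the kinase Grk6 (-0.63 ± 0.16) lower, of 17 tested, where 18.2% of all genes were higher and 18.4% lower.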

How the data were processed

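UMI counts per gene and cell of 4 libraries were analysed, 1 per stage. The authors deposited them as filtered count matrices from the 10x Genomics 3′ kit v2, made per the labels with Cell Ranger 3.1.0 on mm10. The members and gene lists were chosen with earlier results of these data known. Cells with under 1000 genes or over 10% mitochondrial UMIs were removed, and then the cells of highest Scrublet score, at 0.8% per 1000 cells (scanpy 1.11.5), since the automatic threshold marked only 0.0247% to 1.58%. Doublet removal took out 459, 70, 131 and 517 cells in order of stage and left 151615964, 106020617, 70599266 and 127959940 UMIs per library. CPM are UMIs of a gene per 1000000 UMIs of the summed cells, with exact Poisson 95% intervals. Shares have Clopper-Pearson intervals and ratios of stages conditional binomial ones. A count of 0 was set at 3 counts for folds. Thinning drew 5000 UMIs per cell and left out 23 shallower cells of E9.5.

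Sums of at least 20 cells were tested in edgeR 4.0.16 (filterByExpr, TMM, quasi-likelihood, library as block) and called at an adjusted p below 0.05. On simulated counts between 92.0% and 95.0% of genes changed 4-fold and between 36.0% and 58.0% of those changed 2-fold were called over the 4 contrasts. The simulated libraries shared the same mesenchyme profile and a fixed spread, with no stage differences, so these shares do not measure power in the real libraries. Named genes are the members, up to 3 called genes per direction of each of 4 pathway lists (42 of 43 genes in the files), and the 5 nearest genes per member, of which 1 is not reported here. Alternatives were DESeq2 1.42.0, no count filter, no block, each library left out, 2 or 4 markers, no doublet removal, all barcodes, thinned cells and other totals. All 4 members matched the RefSeq promoter table (GRCm38.p6). Reads of overlapping genes cannot be traced from counts. P-values measure the spread between libraries that also differ in stage.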

Additional observations from a re-analysis of the deposited data

Results flagged for a closer look

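Cxcr4 in endothelium against mesenchyme turned direction between the early and the late libraries. The log2 ratio of CPM was -0.87 at E8.0 and -2.13 at E8.25, and 1.90 at E9.5 and 0.93 at E10.5. It drew attention because every early library lay on one side and every late library on the other. The difference between the early and the late pair was not tested. The endothelial levels rest on 52, 4, 19 and 24 UMIs, and mesenchyme fell over the same libraries from 11.2 to 1.86 CPM.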

How the results depend on the processing

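Of 170 alternative values of the members' fold changes, 151 kept the direction and side of the threshold, and 0 of the called members changed sign. Of the members not called, 4 changed sign under 9 alternatives: Ackr3 in endothelium and blood, Cxcr4 in endothelium and Cxcl13 in muscle progenitors. The causes below were not tested. With no library block, which leaves the stage differences in the spread, fewer genes were called: 1604 higher and 1096 lower in endothelium, 1239 and 815 in cardiomyocytes, and 0 and 1 in muscle progenitors, where 627 genes had an unadjusted p under 0.05 in edgeR and DESeq2 with the block called 281 and 244. In that fit muscle progenitors had log2 -0.96 for Cxcl12, 1.94 for Cxcr4 and -1.22 for Ackr3, blood had -3.09 for Cxcl12, and cardiomyocytes had -2.61 for Cxcl13 and -1.88 for Cxcr4, none called. It changed no other call of a member. Thinned cells gave 1765 higher and 1552 lower in endothelium, 1495 and 1373 in cardiomyocytes, and 369 lower in muscle progenitors. With no count filter muscle progenitors had 288 higher and 428 lower, and with at least 4 markers 323 lower. At least 2 markers gave -0.98 for Ackr3 in muscle progenitors and -1.19 for Cxcr4 in cardiomyocytes, neither called. Cardiomyocyte Cxcl12 was called with DESeq2 (-2.04), no filter (-1.49) and at least 4 markers (-1.66), and Ackr3 with at least 4 markers (-1.01).

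Leaving out 1 library at a time gave ranges of log2 2.19 to 2.86 for Cxcr4 and -1.61 to -1.27 for Ackr3 in muscle progenitors, and -2.29 to -1.18 for Cxcl12 and -2.40 to -1.27 for Cxcr4 in cardiomyocytes. The counts called ranged from 59 to 228 higher and 68 to 373 lower in muscle progenitors, 1392 to 3134 and 2739 to 4251 in blood, 1486 to 2055 and 1390 to 2217 in cardiomyocytes, and 2094 to 2481 and 1698 to 2075 in endothelium.

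The stage ratio (log2, E10.5 over E8.0) moved past its counting interval in 13 of 154 alternatives. Without haemoglobin, mitochondrial and ribosomal protein genes in the total it was 3.86 for Cxcl12, -1.53 for Cxcr4 and 1.42 for Ackr3 over all cells and 2.41 for Ackr3 in blood. In thinned cells it was 3.84 for Cxcl12 and -1.91 for Cxcr4 over all cells, 4.22 for endothelial Cxcl12 and 0.89 for splanchnic Ackr3. With TMM-scaled totals it was 3.97 for mesenchyme Cxcl12 and 2.43 for blood Ackr3. At least 4 markers gave 2.30 for mesenchyme Ackr3 and -2.38 for splanchnic Cxcr4, and at least 2 markers gave 4.89 for cardiomyocyte Cxcl12. The gate with the highest level differed in 6 of 32 cases. With at least 2 markers these were the mesothelial gate at E8.0 for Cxcl12 (16.1 CPM) and Ackr3 (64.4 CPM) and cardiomyocytes at E10.5 for Cxcl12 (119 CPM). With at least 4 markers they were the paraxial gate at E8.25 for Cxcl12 (46.8 CPM), the mesothelial gate at E8.25 for Cxcl13 (1.3 CPM) and mesenchyme at E8.0 for Cxcr4 (11.2 CPM), where fewer than 20 muscle progenitors were left. Blood had no E9.5 sum to leave out. The early endothelial and muscle progenitor levels of both receptors rest on 2 to 52 UMIs, in gates of 43 to 401 cells.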
